A study of Mus musculus with 16 samples.

Results

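Mesothelial transcripts and Dmkn were followed through RNA-seq of vascular endothelial cells (ECs), which form the inner lining of vessels, from a sort of mouse lung. The 8 genes are Msln, Upk3b, Upk1b, Lrrn4, Gpm6a, Krt19, Wt1 and Dmkn, of 43346 genes in the deposited table. They were picked by name, and the choice was made with the Aged Sham against Young Sham values and the difference between the bleomycin responses already known for Dmkn, Msln and Upk3b. For all 8 genes these contrasts, and Aged Bleo against Aged Sham, are therefore given as a description. Where a count of genes called by the fit, or of genes whose groups do not overlap, is printed for them, nothing is read from it. Young Bleo against Young Sham is a term of that difference, so no p is given for Dmkn, Msln or Upk3b in any contrast.

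All mice were FVB and carried a Col1a1-GFP transgene, a reporter that marks collagen-producing cells, and animals of both sexes were used. Age was 2 months in the young and 18 months in the aged groups. Bleomycin, a drug that injures the lung and leads to fibrosis, or PBS (sham) was given into the trachea. Lungs were taken weeks later, at a time the study describes as early resolution of the fibrosis. The 16 libraries comprise 5 of Young Sham, 4 of Young Bleo, 3 of Aged Sham and 4 of Aged Bleo. Cells were gated as CD31+, a marker of endothelium, and as CD45-, EpCAM- and GFP-. No mesothelial marker was part of the gate, and the reporting summary of the study says that purity after sorting was not assessed. Each library is named by its group and the number in its title. The labels do not name the mouse behind each library, while the study describes the RNA as taken from the lungs of its ATAC-seq set, in which a sample was 1 mouse.

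The mesothelium is the single layer of flat cells that covers the lung and lines the pleural cavity. It shares keratins and other proteins with epithelium although it arises from mesoderm. Mesothelin (Msln) is a surface glycoprotein that is widely used as a marker of this layer. Dermokine (Dmkn) is best known as a secreted protein of the differentiating epidermis, and its gene lies between Sbsn and Krtdap, which are also epidermal.

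The 8 genes are protein-coding on the annotation of mm10. Msln (ENSMUSG00000063011) lies on chromosome 17 from 25748614 to 25754327. Upk3b (ENSMUSG00000042985) lies on chromosome 5 from 136038496 to 136045303. Upk1b (ENSMUSG00000049436) lies on chromosome 16 from 38773184 to 38800203. Lrrn4 (ENSMUSG00000043110) lies on chromosome 2 from 132868305 to 132880891, and Wt1 (ENSMUSG00000016458) is on the same chromosome from 105126529 to 105173616. Gpm6a (ENSMUSG00000031517) lies on chromosome 8 from 54954728 to 55060877, and Krt19 (ENSMUSG00000020911) on chromosome 11 from 100140810 to 100148665. Dmkn (ENSMUSG00000060962) lies on chromosome 7 from 30763756 to 30781063. Gpm6a overlaps 5 other annotated genes on its own strand, so part of its count may be shared with them, and the other 7 overlap none.

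Promoter sequences were at hand in RefSeq (GRCm38.p6) for 4 of the 8 genes, Dmkn, Upk3b, Lrrn4 and Gpm6a. Each window below covers the 250 bases before a transcript start, 5′ to 3′ on the strand of the gene, with 1 motif in capitals. Dmkn is shown because its level separated the groups most clearly. It has an outer and an inner start, and both windows hold the AP-1 letters TGANTCA (capitals), at -89 of the outer start (chr7:30763506-30763755, + strand) and at -82 of the inner one (chr7:30776155-30776404, + strand). Counts per gene do not tell the starts apart. Upk3b (chr5:136038246-136038495, + strand) and Lrrn4 (chr2:132880863-132881112, - strand) are shown because both hold the TEAD letters GGAATG (capitals, CATTCC on the other strand), at -241 and -196. Of the 2 Gpm6a windows, the one that ends at the annotated gene start (chr8:54954478-54954727, + strand) holds no GGAATG but TATAAA at -211. The other lies far upstream of the annotated gene (chr8:54779184-54779433, + strand) and holds GGAATG at -125, and neither is shown.
Dmkn outer start: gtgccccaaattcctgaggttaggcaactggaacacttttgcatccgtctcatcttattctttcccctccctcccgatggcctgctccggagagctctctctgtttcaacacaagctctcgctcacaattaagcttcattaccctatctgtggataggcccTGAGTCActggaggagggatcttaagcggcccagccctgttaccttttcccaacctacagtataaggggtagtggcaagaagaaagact
Dmkn inner start: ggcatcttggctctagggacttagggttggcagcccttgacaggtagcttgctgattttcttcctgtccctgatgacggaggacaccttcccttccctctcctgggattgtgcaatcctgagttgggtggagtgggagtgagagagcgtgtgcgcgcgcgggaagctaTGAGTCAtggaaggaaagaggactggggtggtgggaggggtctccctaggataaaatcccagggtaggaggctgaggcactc
Upk3b: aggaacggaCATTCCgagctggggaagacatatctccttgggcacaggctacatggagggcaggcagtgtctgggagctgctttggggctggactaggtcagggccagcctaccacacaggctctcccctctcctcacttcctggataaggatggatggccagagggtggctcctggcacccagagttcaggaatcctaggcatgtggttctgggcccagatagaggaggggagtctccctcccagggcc
Lrrn4: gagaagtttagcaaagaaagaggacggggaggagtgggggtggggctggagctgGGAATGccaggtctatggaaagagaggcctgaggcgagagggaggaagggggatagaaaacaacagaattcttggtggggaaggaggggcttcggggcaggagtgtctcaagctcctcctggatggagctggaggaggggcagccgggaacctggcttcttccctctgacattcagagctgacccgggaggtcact

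Read on both strands, TGANTCA occurred in 6.75% and GGAATG in 12.6% of the 32817 RefSeq windows of this length. The ETS core GGAA, which lies inside GGAATG and is also the core of the site that the endothelial factor Erg binds, occurred in 93.4% of all windows and in each of the 4 shown, at 4 to 6 places. The letters TATAAA (12.4% of windows), GGGCGG (32.7%) and GCGGGGGCG (2.57%, the letters bound by Wt1 and Egr factors) were in none of the 4 windows shown. A match describes letters in a window and does not show that a factor is bound there.

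Total counts per library ranged from 20.9 to 71.0 M counts. Levels below are read counts divided by the DESeq2 size factor of the library (normalized counts) unless FPKM, which also divides by gene length, is named, and a value after ± is the SD over libraries. A floor of 3 counts corresponds to a normalized count of 1.80 to 6.15, depending on the library. Endothelial markers were high in every library, and Pecam1 (CD31) ran from 66.6 to 152 FPKM and Cdh5 from 67.6 to 111 FPKM over the 16 libraries. Epcam, the negative gate, reached at most 0.798 FPKM and Ptprc (CD45) at most 0.517 FPKM. Col1a1, whose reporter was the third negative gate, was at 0.676 to 2.95 FPKM, which is within the range of group means of the 8 genes. The library Aged Bleo 2 stood apart from the other 3 of its group in several of the 8 genes, and the fold changes that include it are given with and without it.

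**Figure D1:**
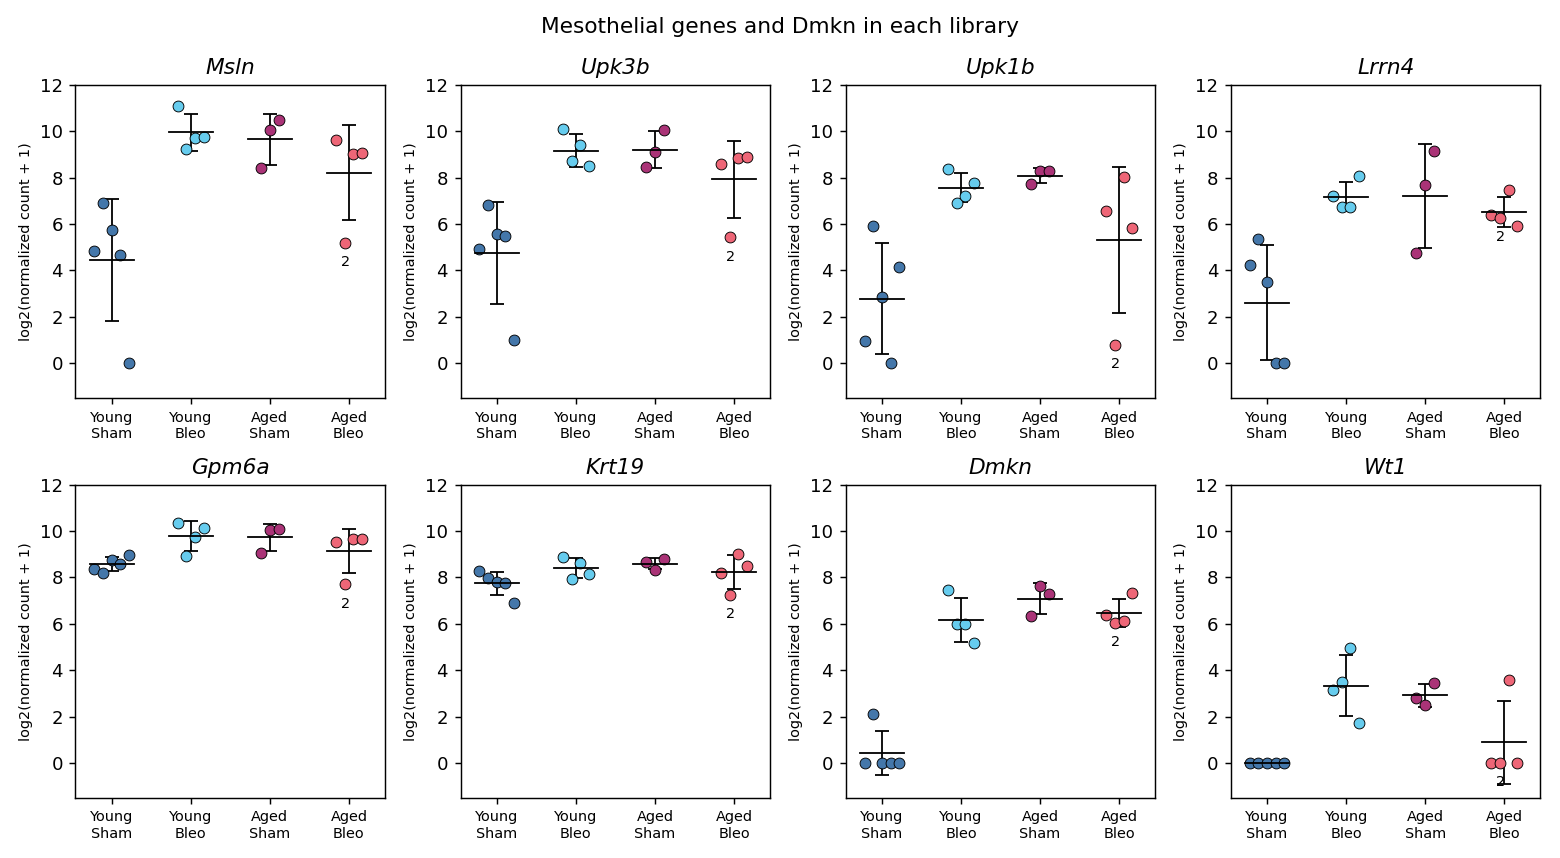
Level of each of the 8 genes, as log2(normalized count + 1), in every library of the 4 groups, with the group mean (line) and 1 SD (bar). The Young Sham mean is the lowest for all 8 genes, though by little for Gpm6a and Krt19, and the point labelled 2 in Aged Bleo falls to Young Sham levels for Msln, Upk3b and Upk1b but not for Lrrn4 or Dmkn.

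Msln was low in young sham endothelium, at 21 to 145 reads in 4 libraries and none in the other, and higher in every library of the other groups but Aged Bleo 2. The Young Sham libraries 21, 22, 23, 24 and 25 held normalized counts of 27.4, 120, 53.3, 24.6 and 0. Young Bleo libraries 17, 18, 19 and 20 held 2189, 607, 836 and 869. Aged Sham libraries 13, 14 and 15 held 342, 1068 and 1448, without any injury. Aged Bleo libraries 1, 2, 3 and 5 held 782, 35.4, 525 and 529. Every Young Bleo and Aged Sham library was above every Young Sham library, while Aged Bleo 2 lay among the Young Sham values. Group means were 44.9 ± 45.7 for Young Sham (n = 5), 1126 ± 719 for Young Bleo (n = 4), 953 ± 562 for Aged Sham (n = 3) and 468 ± 312 for Aged Bleo (n = 4), or 612 ± 147 without Aged Bleo 2 (n = 3). The last 3 groups overlapped, so their order is not set beyond the spread.

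Upk3b, a uroplakin first known from the bladder lining and also made by mesothelium, followed Msln closely. Its Young Sham libraries, in the same order, held 29.3, 111, 47.2, 43.3 and 0.978. Young Bleo held 1082, 417, 677 and 361, which is above all of these. Aged Sham held 354, 557 and 1057, and Aged Bleo 381, 42.0, 454 and 470. Again only Aged Bleo 2 of the 11 libraries outside Young Sham reached down to Young Sham levels. Across the 16 libraries the log2 levels of Upk3b and Msln had r = 0.991, and r = 0.976 after the group means were taken away, a description over libraries that share their depth and sort.

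Upk1b, a tetraspanin that partners uroplakins of the other class, held 60.1 in Young Sham 22 and at most 16.6 in the other 4 Young Sham libraries. Young Bleo libraries 17 to 20 held 327, 121, 149 and 220. Aged Sham libraries held 210, 310 and 309, all above Young Sham. Aged Bleo spread widely, with 92.5, 0.737, 260 and 56.8, so Aged Bleo 2 was lower than most Young Sham libraries and Aged Bleo 5 lay just under Young Sham 22.

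Lrrn4 encodes a leucine-rich repeat membrane protein found in mesothelium. Its 5 Young Sham libraries held 17.9, 39.5, 10.3, 0 and 0. Young Bleo held 146, 106, 106 and 267, all above Young Sham. Aged Sham had the widest range, with 26.0, 207 and 571, and Aged Sham 13 overlapped Young Sham. Aged Bleo held 83.9, 75.9, 176 and 60.0, all above Young Sham, and here Aged Bleo 2 was like its group.

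Gpm6a, a membrane glycoprotein that is abundant in neurons and also made by mesothelium, had a clear level in young sham cells. Young Sham libraries held between 293 and 499, with a median of 377. The highest was Young Sham 25, which had no Msln read, and the lowest Young Sham 22, which had the most Msln of its group. Young Bleo held 1314, 480, 856 and 1133, so Young Bleo 18 overlapped Young Sham. The Aged Sham values of 532, 1055 and 1077 did not overlap Young Sham. Aged Bleo held 733, 208, 795 and 796, with replicate 2 below every Young Sham library.

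Krt19, a keratin of simple epithelia and mesothelium, moved least. It ranged between 119 and 305 across Young Sham, 246 and 467 across Young Bleo, 320 and 445 across Aged Sham, and 153 and 516 across Aged Bleo. Only Aged Sham lay wholly above Young Sham. Means were 223 ± 67.6 for Young Sham (n = 5), 349 ± 101 for Young Bleo (n = 4), 389 ± 63.7 for Aged Sham (n = 3) and 329 ± 151 for Aged Bleo (n = 4), or 387 ± 116 without Aged Bleo 2 (n = 3).

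Wt1, the zinc-finger factor that marks mesothelium and its precursors, was close to the limit of detection. No read was counted in any Young Sham library. Young Bleo libraries held 7.80, 10.4, 29.8 and 2.32, and Aged Sham libraries 5.99, 4.62 and 10.1. In Aged Bleo it was at 10.8 in replicate 3 and at 0 in replicates 1, 2 and 5. The highest raw count in any library was 27. Taken against the floor of 3 counts per library in Young Sham, the Young Bleo mean was at least 3.51-fold higher. That bound leaned on Young Bleo 19 (29.8), as the others of its group held at most 10.4. The Aged Sham mean was at least 1.92-fold higher, and the Aged Bleo mean was under the floor.

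Dmkn was the gene with the sharpest split. It was at 0 in 4 Young Sham libraries and at 3.30 (4 reads) in Young Sham 22. Young Bleo libraries 17 to 20 held 173, 63.4, 62.8 and 35.6. Aged Sham held 79.9, 195 and 157, and Aged Bleo 83.1, 65.6, 67.8 and 160. All 11 libraries outside Young Sham were above all 5 within it. Dmkn was alone among the 8 genes in this, a pattern that 0.697% of the 18515 genes tested showed. As Dmkn was chosen with earlier values of these libraries known, nothing is read from that share. Means were 83.8 ± 61.1 for Young Bleo (n = 4), 94.1 ± 44.5 for Aged Bleo (n = 4) and 144 ± 58.6 for Aged Sham (n = 3), and these 3 groups overlapped. Without Young Sham 22 all young sham values are 0, and against the floor of 3 counts per library Dmkn was then at least 21.7-fold higher in Young Bleo, at least 37.4-fold in Aged Sham and at least 24.4-fold in Aged Bleo. The Young Bleo bound leaned on Young Bleo 17 (173), as the others of its group held at most 63.4.

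On the per-length scale the genes could be set side by side within a group. In Young Bleo the mean FPKM was 5.35 for Msln, 2.87 for Gpm6a, 2.70 for Upk3b, 1.88 for Krt19, 1.17 for Upk1b, 0.430 for Lrrn4, 0.382 for Dmkn and 0.0199 for Wt1. Young Sham had another order, in which Krt19 (1.19 FPKM) and Gpm6a (1.15 FPKM) led and Msln stood at 0.215 FPKM. Relative to Pecam1 in the same library, the FPKM of Msln was 0.170% ± 0.159 for Young Sham (n = 5), 5.18% ± 3.83 for Young Bleo (n = 4), 3.96% ± 1.89 for Aged Sham (n = 3) and 1.94% ± 1.34 for Aged Bleo (n = 4), or 2.53% ± 0.814 without Aged Bleo 2 (n = 3). The level of Msln was thus small beside that of Pecam1 in all groups, a ratio of 1 gene to 1 gene and not a share of cells. In bulk RNA of this kind, more cells of a type and more RNA per cell cannot be told apart.

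In the response of young endothelium to bleomycin, 4 of the 5 genes other than Dmkn, Msln and Upk3b passed the test, Wt1 among them on few reads. DESeq2 called Upk1b, Lrrn4, Gpm6a and Wt1 higher in Young Bleo than in Young Sham (Benjamini-Hochberg adjusted p at most 0.05 and log2 fold change at least 0.5 in size) and none of the 5 lower, where it called 7.57% of all tested genes higher and 6.35% lower. Every Young Bleo library was above every Young Sham library for 3 of the 5 (Upk1b, Lrrn4 and Wt1), against 7.62% of all genes. For Wt1 that is any read against none, as Young Bleo 20 held 3 reads. That Wt1 level of 2.32 lies under the floor of 6.15 in Young Sham 23. The contrast uses the same Young Sham libraries as Aged Sham against Young Sham. For the 3 genes chosen in view of the difference of responses, values are a description, with log2 fold changes of 6.66 for Dmkn (SE 0.916), 4.65 for Msln (SE 0.974) and 3.77 for Upk3b (SE 0.715). Lrrn4 rose by 3.51 on the log2 scale (SE 0.912, DESeq2 adjusted p = 0.0020). Upk1b rose by 3.59 (SE 1.19, DESeq2 adjusted p = 0.021) and Gpm6a by 1.29 (SE 0.369, DESeq2 adjusted p = 0.0059). Wt1 was called as well, with an adjusted p of 0.017 in DESeq2 on the few reads given above. With no read in Young Sham, it entered the test only through the other groups, so nothing is read from its call. Krt19 was not called, with a log2 fold change of 0.65 (95% interval -0.01 to 1.30, DESeq2 adjusted p = 0.20). The median over the 5 tested genes was 3.51, or 1.81 with Wt1 set at its bound, beside 0.01 over all genes tested.

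These calls leaned on Young Bleo 17, the library with the most Msln. Without it the DESeq2 adjusted p was 0.0095 for Lrrn4, 0.094 for Upk1b and 0.054 for Gpm6a. Their log2 fold changes were then 3.54, 3.27 and 1.09. Wt1 was given no adjusted p, and so no call, without Young Bleo 17, 18 or 19. Without Young Sham 23 that of Upk1b was 0.054. Without Young Sham 22, which had the most Msln of its group, the log2 fold changes were larger, at 5.10 for Upk1b, 4.48 for Lrrn4, 5.44 for Msln and 4.41 for Upk3b, and without Young Bleo 17 that of Dmkn was 6.01. Over all alternatives tried the adjusted p ran from 5.6e-05 to 0.15 for Lrrn4, from 3e-05 to 0.094 for Upk1b, from 0.0017 to 0.083 for Gpm6a and, in the 11 that gave one, from 0.017 to 0.19 for Wt1. With edgeR the same 4 of the 5 genes were called higher, while limma called 2 of 5 on log2(FPKM + 0.1) and 1 of 5 on log2(FPKM + 1). The constant added to FPKM holds down the folds of low genes. On log2(FPKM + 1) Lrrn4 was at 0.45, under the 0.5 that a call needs. Wt1, at a mean of 0.0199 FPKM in Young Bleo, lies far under both constants.

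**Figure D2:**
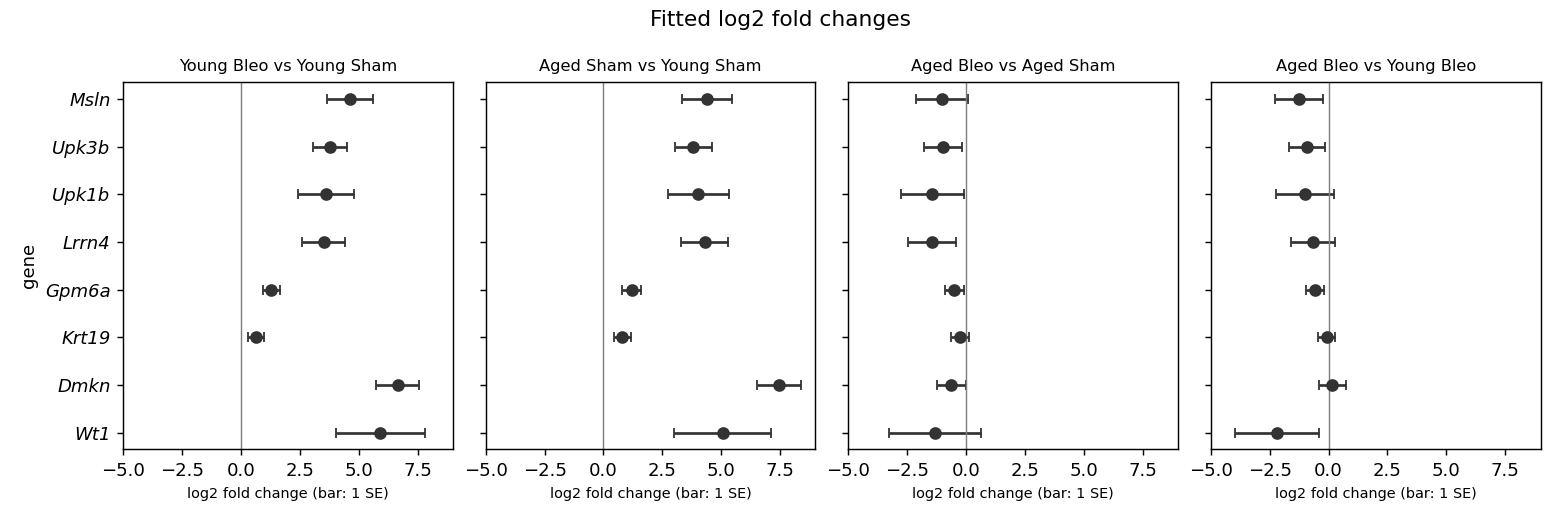
Fitted log2 fold change of each gene (point) with 1 SE (bar) in 4 contrasts of the DESeq2 model over 16 libraries. All 8 genes lie right of 0 in both contrasts against Young Sham, and all 8 lie left of 0 in Aged Bleo against Aged Sham, where the bars are wide. The Wt1 values against Young Sham depend on the handling of its counts of 0.

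The effect of age without injury, Aged Sham against Young Sham, had the same direction in every gene. The log2 fold change was 7.45 for Dmkn (SE 0.946), 4.41 for Msln (SE 1.06), 4.29 for Lrrn4 (SE 0.989), 4.03 for Upk1b (SE 1.30), 3.82 for Upk3b (SE 0.778), 1.20 for Gpm6a (SE 0.402) and 0.80 for Krt19 (SE 0.366). The model called 4 of 8 higher (Dmkn, Msln, Lrrn4 and Upk3b) and none lower, where it called 2.24% of all genes higher and 1.11% lower. In 7 of 8, all but Lrrn4, every Aged Sham library was above every Young Sham library, which held for 4.95% of all genes. For Wt1 that is a few reads against none. Its levels in Aged Sham 13 (5.99) and Aged Sham 14 (4.62) lie under the floor of 6.15 in Young Sham 23. Since Dmkn, Msln and Upk3b were chosen in view of this contrast, nothing is read from these counts, nor from the median of 4.16 (3.92 with Wt1 at its bound, 0.02 over all genes). For Dmkn the fold change rested on the 4 reads of Young Sham 22, without which only the bounds given above can be stated. Without Young Sham 22 the log2 value was 5.54 for Upk1b, 5.20 for Msln and 4.46 for Upk3b, and that of Lrrn4 was 3.09 without Aged Sham 15 and 5.26 without Young Sham 22.

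Injury in aged mice went with lower, not higher, average levels of all 8 genes, and the groups overlapped in every gene. DESeq2 called none of the 8, where it called 3.39% of all genes higher and 2.44% lower, and edgeR called none either. Log2 fold changes in Aged Bleo against Aged Sham were -1.03 for Msln (SE 1.10), -0.96 for Upk3b (SE 0.807), -1.43 for Upk1b (SE 1.34), -1.44 for Lrrn4 (SE 1.02), -0.49 for Gpm6a (SE 0.420), -0.24 for Krt19 (SE 0.381), -0.62 for Dmkn (SE 0.631) and -1.33 for Wt1 (SE 1.95). Without Aged Bleo 2 the log2 values were -0.64 for Msln, -0.59 for Upk3b, -1.02 for Upk1b, -0.20 for Gpm6a and -0.01 for Krt19, and those of Dmkn, Lrrn4 and Wt1 were -0.48, -1.33 and -0.92. The value for Lrrn4 was -0.24 without Aged Sham 15, and that for Upk1b was -2.47 without Aged Bleo 3. For Wt1 all Aged Bleo reads come from that library, so no fold can be given without it.

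Aged Bleo was also set against Young Sham by the libraries themselves. All Aged Bleo libraries were above all Young Sham libraries for 2 of 8 genes, Lrrn4 and Dmkn, beside 5.82% of all genes. Without Aged Bleo 2, left out after its values were seen, the count was 5 of 8 (Msln, Upk3b, Lrrn4, Gpm6a and Dmkn) beside 7.21% of all genes. As Dmkn, Msln and Upk3b were chosen with earlier values of these libraries known, nothing is read from either count.

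The comparison of injured ECs by age, Aged Bleo against Young Bleo, gave no call among the 5 tested genes, where DESeq2 called 0.616% of all genes higher and 0.41% lower. None of the 5 had an unadjusted p under 0.05, and edgeR called 0 of 5. Lrrn4 differed by -0.66 on the log2 scale (95% interval -2.50 to 1.19, DESeq2 adjusted p = 0.91) and Upk1b by -0.99 (-3.43 to 1.44, DESeq2 adjusted p = 0.89). Gpm6a differed by -0.58 (-1.34 to 0.18, DESeq2 adjusted p = 0.66), Krt19 by -0.08 (-0.77 to 0.60, DESeq2 adjusted p = 0.98) and Wt1 by -2.19 (-5.71 to 1.32, DESeq2 adjusted p = 0.77). Msln, Upk3b and Dmkn had log2 values of -1.27, -0.91 and 0.17. The value for Krt19 turned to 0.15 without Aged Bleo 2 and to 0.09 without Young Bleo 17, and without Aged Bleo 2 the log2 values were -0.88 for Msln, -0.55 for Upk3b, -0.58 for Upk1b, -0.29 for Gpm6a, -0.55 for Lrrn4, -1.78 for Wt1 and 0.30 for Dmkn. Without Aged Bleo 3 the value for Upk1b was -2.03, and for Wt1 every Aged Bleo count is then 0, so no fold is given. Without Young Bleo 19 that for Wt1 was -1.32, and without Young Bleo 17 that for Dmkn was 0.81. The value for Dmkn turned to -0.22 without Aged Bleo 5 and to -0.09 without Young Bleo 20.

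The difference between the bleomycin responses, aged minus young, joins these contrasts. It was negative for all 8 genes: bleomycin went with higher average levels in young mice and with lower average levels in aged mice, whose sham values were already high. The log2 difference was -7.28 for Dmkn (SE 1.11), -5.67 for Msln (SE 1.47), -5.02 for Upk1b (SE 1.80), -4.95 for Lrrn4 (SE 1.37), -4.73 for Upk3b (SE 1.08), -1.78 for Gpm6a (SE 0.559) and -0.89 for Krt19 (SE 0.507). DESeq2 called 3 of 8 lower (Msln, Upk3b and Dmkn) and none higher, beside 0.247% of all genes lower and 0.134% higher, and edgeR called none of the 8. Those 3 genes were picked in view of this contrast, and nothing is read from the count. Without Aged Bleo 2 the log2 difference was -7.15 for Dmkn, -5.29 for Msln, -4.60 for Upk1b, -4.85 for Lrrn4, -4.37 for Upk3b, -1.49 for Gpm6a and -0.65 for Krt19. Without Young Sham 22 it was -6.53 for Upk1b, -6.46 for Msln, -5.92 for Lrrn4 and -5.37 for Upk3b, while that for Dmkn rests on the 4 reads of this library. It was -6.63 for Dmkn without Young Bleo 17, -6.05 for Upk1b without Aged Bleo 3 and -3.75 for Lrrn4 without Aged Sham 15.

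The genes were then compared with each other across libraries. Over the 28 pairs, r of the log2 levels ran from 0.55 to 0.99 with a median of 0.70. After the group means were taken away it ran from -0.03 to 0.98 with a median of 0.40, and 27 of 28 pairs stayed positive. Dmkn was less tied to Msln (0.82 over libraries, 0.52 within groups) than Upk3b was. These values describe 16 libraries that share a sort and a range of depth, and carry no test.

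The ratio of Dmkn to Msln varied several fold between libraries and was far higher in Aged Bleo 2 than in any other library with Msln reads. In the 4 Young Sham libraries with Msln reads the FPKM of Dmkn was 0% to 2.66% of that of Msln. In the 10 libraries outside Young Sham other than Aged Bleo 2, it was 3.94% to 29.1%. In Aged Bleo 2 it was 179%. Lrrn4 behaved likewise there, at 122% of Msln FPKM against 3.81% to 22.4% in those 10 libraries and at most 37.3% in Young Sham. Upk3b was at 107% in Aged Bleo 2, at 37.4% to 93.3% in the 10 and at up to 159% in Young Sham. So in Aged Bleo 2 Msln, Upk3b, Upk1b, Gpm6a and Krt19 were low, while Dmkn and Lrrn4 were at the level of their group.

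**Figure D3:**
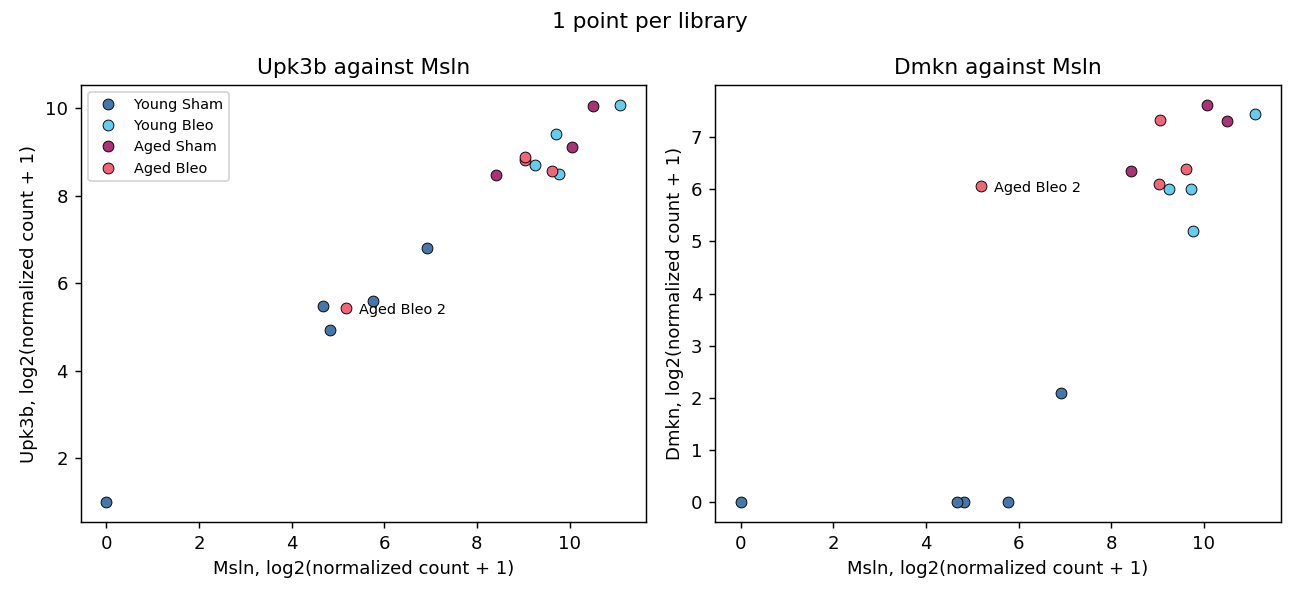
Upk3b (left) and Dmkn (right) against Msln, both axes as log2(normalized count + 1), with 1 point per library coloured by group. Upk3b follows Msln through all 16 libraries, whereas Aged Bleo 2 holds Dmkn at 65.6 normalized counts with Msln at 35.4.

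Further genes known from mesothelium were examined as a list of 16 that holds none of the 8. DESeq2 gave an adjusted p for 15 of them. The list, too, was drawn up with earlier results of these libraries known, so its counts, medians and p are given as a description. In Aged Sham against Young Sham 4 rose and none fell, where 2.24% of all genes were called higher and 1.11% lower, and the median log2 fold change was 0.98 over the list beside 0.02 over all genes. Rspo1, a secreted enhancer of Wnt signalling, rose by 4.17 on the log2 scale (SE 0.748, DESeq2 adjusted p = 9.3e-06), from a mean of 9.59 ± 12.4 for Young Sham (n = 5) to 182 ± 92.4 for Aged Sham (n = 3). Anxa8, an annexin, rose by 3.12 (SE 0.936, DESeq2 adjusted p = 0.030) and Aldh1a2, which makes retinoic acid, by 3.02 (SE 0.932, DESeq2 adjusted p = 0.038). Bnc1, a zinc-finger factor, was at 0 in every Young Sham library. Its Aged Sham mean was at least 6.40-fold higher against the floor of 3 counts per library (DESeq2 adjusted p = 0.029). That mean leaned on Aged Sham 15 (44.8), beside 21.9 in Aged Sham 14 and 1 read in Aged Sham 13. In edgeR the adjusted p was 0.022 for Rspo1, 0.18 for Anxa8, 0.16 for Aldh1a2 and 0.15 for Bnc1, so 1 of the 4 was called there. Rspo1 kept its call without each of the 8 libraries in turn, Anxa8, Aldh1a2 and Bnc1 each did in 4 of these 8 fits, and 2 of the list were called without Aged Sham 13, Aged Sham 14 or Young Sham 21. Without Young Sham 22 the log2 fold change was 5.2 for Rspo1 and 4.5 for Anxa8.

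In Young Bleo against Young Sham 6 of the 15 rose and none fell, where 7.57% of all genes were called higher and 6.35% lower, and the median was 1.20 beside 0.01 over all genes. These were Pdpn (podoplanin, also made by lymphatic and alveolar cells), Cldn15, Ildr2, Rspo1, Aldh1a2 and Bnc1, and edgeR called 4 of the 15. Pdpn rose by 1.82 on the log2 scale (SE 0.347, DESeq2 adjusted p = 1.0e-05), Rspo1 by 2.82 (SE 0.694, DESeq2 adjusted p = 0.0010) and Aldh1a2 by 2.55 (SE 0.857, DESeq2 adjusted p = 0.024). Pdpn, Cldn15, Rspo1 and Bnc1 were called without each of the 9 libraries in turn, Aldh1a2 in 6 and Ildr2 in 3 of these 9 fits. Without Young Sham 22 the log2 fold change of Rspo1 was 3.82. Muc16, the large mucin that binds mesothelin, held 8.24 in Young Sham 22 and 0 in the other 4 Young Sham libraries. It held 8.50 to 33.3 in Young Bleo and 26.5 to 32.0 in Aged Sham, without overlap with Young Sham, but was not called (DESeq2 adjusted p = 0.14 and 0.20). Without Young Sham 22 it was called in both (DESeq2 adjusted p = 0.0043 and 0.0096). In Aged Bleo it was at 0 in replicates 2 and 5.

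Between the aged groups and between the injured groups the list gave no call with all libraries in the fit, and a few when 1 was left out. In Aged Bleo against Aged Sham 0 of 15 were called by DESeq2, where it called 3.39% of all genes higher and 2.44% lower, and 0 by edgeR, with 1 higher and 3 lower at an unadjusted p under 0.05, where 9.81% of all genes were higher and 9.16% lower. DESeq2 called 4 of them without Aged Bleo 3 (Pdpn higher and Bnc1, Nkain4 and Igfbp6 lower), 2 without Aged Bleo 5 (Pdpn higher and Krt7 lower) and 1 without Aged Sham 14 (Igfbp6 lower). In Aged Bleo against Young Bleo both tools again called 0 of 15, beside 0.616% of all genes called higher and 0.41% lower by DESeq2. At that unadjusted p 4 of 15 were lower, beside 4.36% of all genes. DESeq2 called Pdpn lower without Aged Bleo 1 and Krt18 lower without Aged Bleo 5. In the difference of the responses all 15 were negative, in libraries that they share, and nothing is read from that count. Rspo1 was called lower (log2 difference -3.91, SE 1.02, DESeq2 adjusted p = 0.040, 0.47 in edgeR), where 0.247% of all genes were called lower. It was called in 6 of the 16 fits that each left out a library, and Bnc1 in 1, without Aged Bleo 3. Without Young Sham 22 the log2 difference of Rspo1 was -4.90. Its Aged Bleo libraries held 56.0 to 97.2, above the highest Young Sham library at 29.7.

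**Figure D4:**
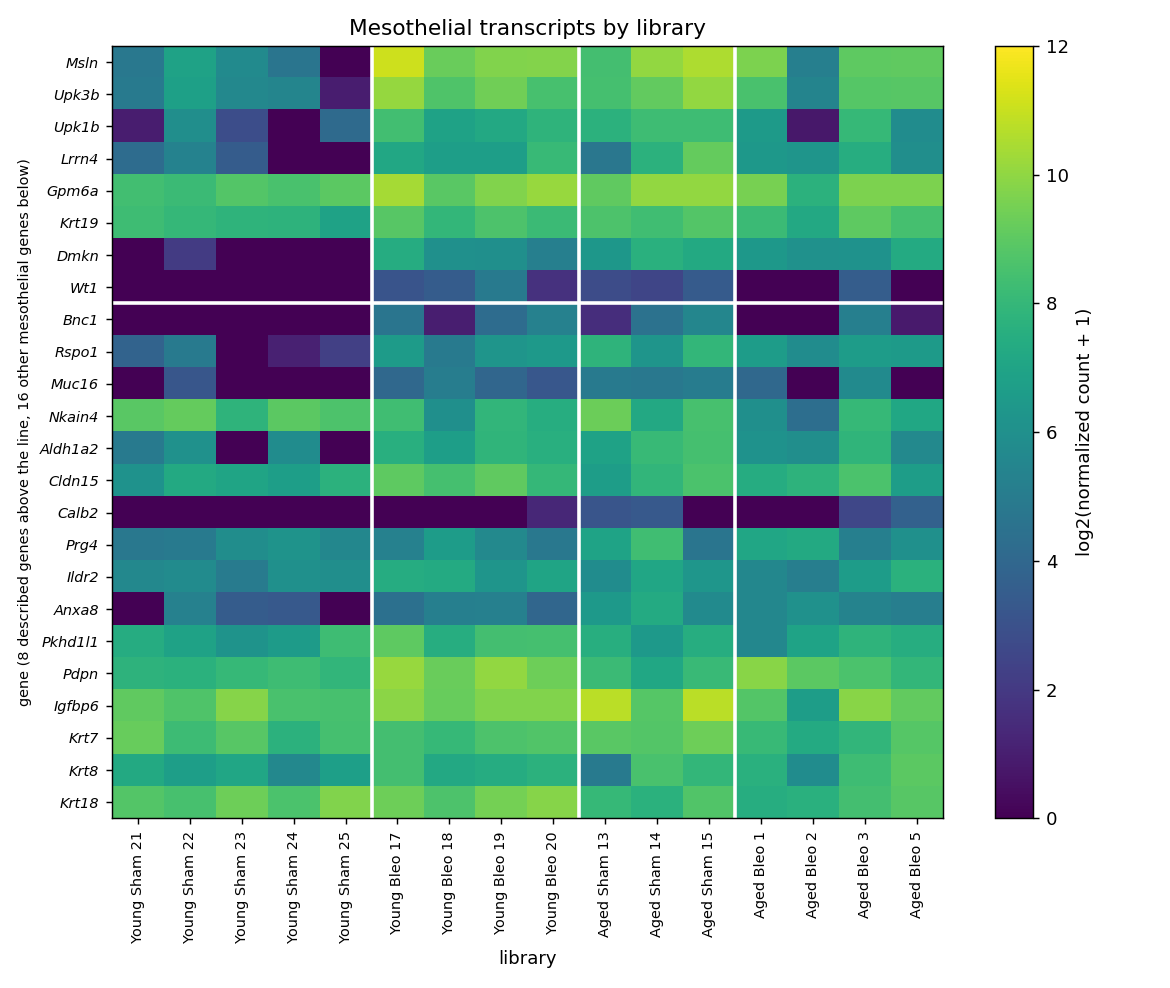
Colour gives log2(normalized count + 1) of the 8 genes (above the white line) and the 16 other mesothelial genes (below) in each library, with groups set apart by vertical lines. Bnc1 and Muc16 are dark in most Young Sham libraries, as Dmkn and Wt1 are, whereas Nkain4, Krt7 and Krt18 are not.

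Not all genes of the list followed. In Aged Sham against Young Sham 11 of the 15 had a positive and 4 a negative log2 fold change. Krt18, a simple-epithelial keratin, had the most negative one, -0.86 (95% interval -1.63 to -0.08, DESeq2 adjusted p = 0.27). Nkain4 held 440 ± 138 for Young Sham (n = 5), 199 ± 107 for Young Bleo (n = 4) and 377 ± 238 for Aged Sham (n = 3), and was not called (DESeq2 adjusted p = 0.19 and 0.92). Calb2, the calretinin gene, was barely detected. It was at 0 in all Young Sham libraries and averaged 0.386 for Young Bleo, 5.74 for Aged Sham and 4.24 for Aged Bleo, and DESeq2 gave it no adjusted p.

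Neighbours and relatives of the 8 genes were read in the same way. Sbsn, the epidermal gene beside Dmkn, held 123 ± 43.7 for Young Sham (n = 5), 163 ± 60.8 for Young Bleo (n = 4), 192 ± 8.34 for Aged Sham (n = 3) and 166 ± 15.4 for Aged Bleo (n = 4). It was called in none of the contrasts (DESeq2 adjusted p = 0.30 in Aged Sham and 0.37 in Young Bleo against Young Sham), and its log2 fold change of 0.64 in Aged Sham stands beside 7.45 for Dmkn. Krtdap, on the other side, was at 0 in all 16 libraries. Of the uroplakins, Upk3a was at 0 throughout, Upk2 had 3 reads in 1 Young Sham library and none elsewhere, and Upk1a averaged 4.09 for Young Sham to 20.6 for Aged Bleo and was not called. Mslnl, the relative of Msln, had 1 read in 1 library.

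Genes with the most similar pattern were ranked by Pearson r over 16 libraries between their log2 level and the mean z-score of the 8 genes, among the 16667 genes whose mean normalized count reached 10. Slurp1 (r = 0.94) led, then the complement gene C2 (0.94), the cytokine gene Il7 (0.91), the complement gene C3 (0.90) and Cyb5r3 (0.87). Hoxd3os1, Sytl1, Tmem151a, Ddx50 and Itih3 made up the first 10, down to 0.83. Within groups r was 0.78 for Slurp1 and 0.72 for C2. Slurp1 held 8.90 ± 5.14 for Young Sham (n = 5), 151 ± 82.8 for Young Bleo (n = 4), 99.8 ± 49.0 for Aged Sham (n = 3) and 83.9 ± 55.7 for Aged Bleo (n = 4). For Dmkn alone the first 5 were Ifit1 (0.92), Tmem151a (0.90), 2700089E24Rik (0.90), Cebpa (0.89) and Fos (0.89). Their likeness lay mostly between groups, since within groups r was 0.44, 0.35, -0.12, 0.64 and -0.07.

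Markers of other cell types moved between the groups too. The summed normalized count of the 8 genes ran from 636 to 877 across Young Sham, from 2052 to 5707 across Young Bleo, from 1950 to 5076 across Aged Sham and from 580 to 2804 across Aged Bleo. The sum of 8 leukocyte markers was 3324 to 5822, 18605 to 55716, 7708 to 26741 and 28077 to 201965 in that order of groups. The sum of 8 fibroblast markers was 10824 to 22831, 9492 to 17737, 16944 to 44673 and 5779 to 13114 in the same order, so it was highest in Aged Sham. The sum of 14 epithelial markers was 34043 to 66724, 17100 to 49019, 38979 to 94359 and 20481 to 60747. That of 5 mural markers was 6831 to 17133, 2417 to 6224, 3890 to 7320 and 1680 to 2828. That of 8 endothelial markers was 493408 to 546336, 295227 to 459817, 445553 to 483127 and 316977 to 450969, and that of 5 lymphatic markers was 10446 to 18624, 14770 to 30923, 11828 to 20439 and 12469 to 20307.

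Some of these markers were called as well. In Aged Sham against Young Sham DESeq2 called 0 of 8 leukocyte, 1 of 8 fibroblast (Pdgfra) and 0 of 14 epithelial markers higher, and Cldn18 and the mural marker Cspg4 lower, and of 8 endothelial markers Erg was higher and Tek lower. In Young Bleo against Young Sham it called 4 of 8 leukocyte markers, 1 epithelial marker (Krt5) and 2 of 5 lymphatic markers (Prox1 and Reln) higher, and 3 epithelial, 1 fibroblast and 3 mural markers lower, with Erg higher and Kdr and Cldn5 lower. In Aged Bleo against Aged Sham 4 of 8 leukocyte markers (Cd68, Csf1r, Chil3 and Lyz2) were higher, while 3 of 8 fibroblast markers (Dcn, Tcf21 and Inmt), Acta2, Cldn18 and Cldn5 were lower and Tek was higher. In Aged Bleo against Young Bleo Hopx was higher and Dcn lower, and Dcn was the marker called, lower, in the difference of the responses. Aged Bleo 2 had the lowest fibroblast sum of the 16 libraries (5779) and a leukocyte sum of 120099. No marker on these lists was at 0 throughout a group, apart from Krt5 in Aged Sham. The part of other cell types in the levels of the 8 genes was not tested.

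**Figure D5:**
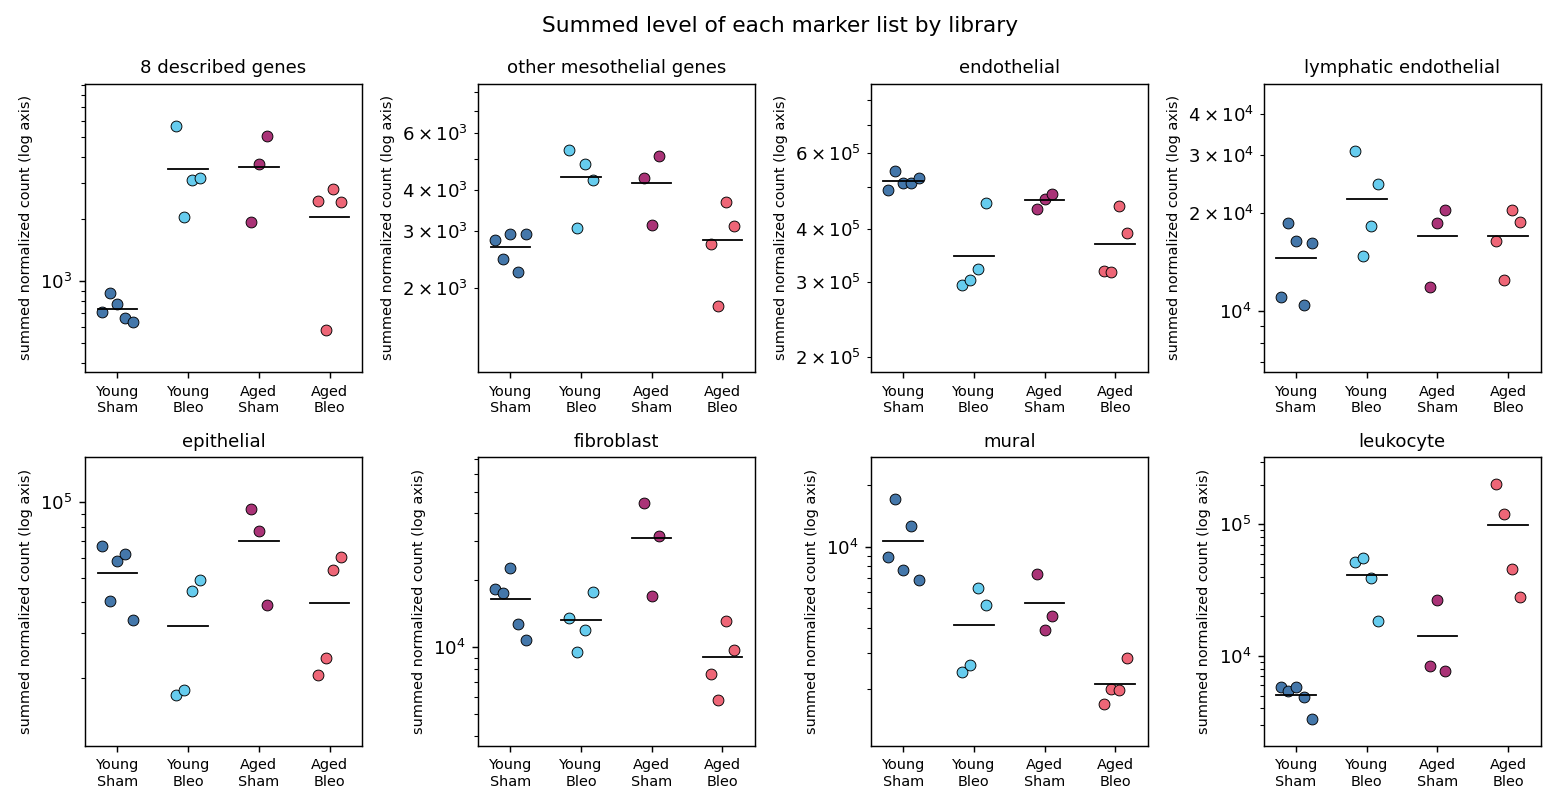
Summed normalized count of each marker list in every library (points, logarithmic axis) with the group mean (line). The 8 described genes are lowest in Young Sham and in Aged Bleo 2, leukocyte markers are highest in the Bleo groups, and fibroblast markers are highest in Aged Sham.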

How the data were processed

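RNA-seq of sorted lung ECs was analysed from 1 table of 16 libraries and 43346 genes. The deposited counts are whole reads per gene, which the authors obtained with STAR 2.5.2b on mm10 and Subread featureCounts in the MAPRSeq pipeline. The deposited FPKM values scale them by gene length and library total, and were used here for levels between genes and as an alternative. The annotation release, strand setting and handling of multi-mapped reads are not given in the sources used here, and the labels and the study's methods name different library kits. The labels give no batch or date.

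Counts were tested with DESeq2 1.42.0 (R 4.3.3) across all genes, with group as the only term over 16 libraries, size factors, a Wald test and unshrunken log2 fold changes. Calls needed a Benjamini-Hochberg adjusted p no higher than 0.05 with a log2 fold change of 0.5 or more in size. Genes for which DESeq2 gave no adjusted p stayed untested. Alternatives were edgeR 4.0.16 (quasi-likelihood), TMM size factors, no independent or Cook's filtering, a minimum mean normalized count of 10, limma 3.58.1 on log2(FPKM + 0.1) and log2(FPKM + 1), and leaving out each library in turn. Scripts were tested on simulated data with 200 changed genes. Every one of 25 replicate pairs differed by more than sampling noise (chi-square per degree of freedom 32.8 to 428, Spearman 0.950 to 0.981). Libraries were mapped by the number in their titles.

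The 8 genes and all lists were chosen with earlier results of these data known. Named besides the 8 were listed mesothelial genes called in a contrast with Young Sham or in the difference of responses, those that went the other way or were at 0, Muc16, the neighbours of Dmkn, relatives of the 8, and the 10 genes most like the 8 and the 5 most like Dmkn. Nkain4, Krt18, Krt7, Igfbp6, Calb2, Pdpn, Cldn15 and Ildr2 fall outside the rule first written and were named after their values were seen. Intervals are 95% Wald intervals.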

Additional observations from a re-analysis of the deposited data

Results flagged for a closer look

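In 5 of 24 sets of 4 or 5 libraries (8 genes in 3 groups), the highest or lowest library lay far from the others by Dixon's criterion. Chance meets it in about 1 of 20 sets, a rate that does not hold for the last 2 named, in which every other library was at 0. These were Msln in Young Bleo 17 (2189 normalized counts), Upk1b in Young Sham 22 (60.1), Gpm6a in Aged Bleo 2 (208), Dmkn in Young Sham 22 (3.30, 4 reads) and Wt1 in Aged Bleo 3 (10.8).

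For 4 genes DESeq2 called the difference of the bleomycin responses (log2, aged minus young), and edgeR called none of them. These were Dmkn (-7.28), Msln (-5.67) and Upk3b (-4.73), which were picked in view of this contrast and are given as a description. The other was Rspo1 (-3.91, DESeq2 adjusted p = 0.040, edgeR adjusted p = 0.47), from a list drawn up with earlier results known.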

How the results depend on the processing

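No paired analysis was possible because the numbers in the library titles are not shared between groups. For the 8 genes the sign of the log2 fold change was kept in 111 of 111 alternatives for Aged Sham against Young Sham, 119 of 119 for Young Bleo against Young Sham, 103 of 103 for Aged Bleo against Aged Sham and 175 of 175 for the difference of responses. In Aged Bleo against Young Bleo it was kept in 107 of 111, and the exceptions were Krt19 and Dmkn, neither of them called. These fits reuse the same libraries and the 8 genes move together, so kept signs do not measure how sure a direction is. In Aged Bleo against Aged Sham none of the 8 was called, and Krt19 was at -0.01 without Aged Bleo 2. Fits of Wt1 without Aged Bleo 3 are counted, although no fold can be given from them. The number of genes called depended most on the tool. For Aged Sham against Young Sham it was 621 in DESeq2, 158 in edgeR, 161 in limma on log2(FPKM + 0.1) and 117 on log2(FPKM + 1), and 369 to 676 when a library was left out. For Aged Bleo against Aged Sham these numbers were 1080, 146, 217, 50 and 474 to 1492. For Aged Bleo against Young Bleo they were 190, 8, 36, 30 and 109 to 469, and for the difference of responses 74, 1, 3, 2 and 36 to 226. For Young Bleo against Young Sham DESeq2 called 2578 genes, limma on log2(FPKM + 1) 1233, and 1807 to 3339 were called when a library was left out. Of the 16 other mesothelial genes, 4 were called higher in Aged Sham against Young Sham, 1 in edgeR, 2 and 1 in the 2 limma fits, and 2 to 4 when a library was left out. In Young Bleo against Young Sham 6 were called higher, 3 in limma on log2(FPKM + 1), and 4 to 7 when a library was left out. In Aged Bleo against Aged Sham 0 to 1 were called higher when a library was left out, and 0 to 0 in Aged Bleo against Young Bleo and in the difference. The causes of these shifts were not tested. Of the 5 genes tested in Young Bleo against Young Sham, 4 were called, and 1 to 4 when a library was left out, fewest without Young Bleo 17. In the 2 limma fits 2 and 1 of these 5 were called, where the constant added to FPKM limits the folds of low genes. Depth limits Wt1 (at most 27 reads in a library), Bnc1 (59), Muc16 (89) and Calb2 (15), and the Young Sham level of Dmkn, which rests on 4 reads.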
